A study of Homo sapiens with 12 samples.

Results

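The genes of the microtubule motors kinesin and dynein were chosen by symbol alone: every KIF, KIFC and KLC kinesin, every DYNC1 and DYNC2 dynein chain, every DYNLL, DYNLT and DYNLRB light chain and every DCTN dynactin subunit in the count table. The rule gave 70 of 59385 gene names, of which 64 had enough reads to be tested and 6 did not. The samples were 12 libraries from 2 HEK293T lines, 1 with a doxycycline-inducible control hairpin (shCtrl) and 1 with a hairpin against PRRC2B (shPRRC2B), both induced with doxycycline for 36 h. PRRC2B is an RNA-binding protein that has been tied to translation initiation, and the study asked which mRNAs depend on it for their translation. From each line, total RNA and RNA of the pooled polysome fractions of a sucrose gradient, both enriched for polyadenylated RNA, were sequenced in 3 biological replicates. The lines were stable single clones, so that a difference between them cannot be told apart from a difference between 2 clones, and no library without doxycycline was analysed here.

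Kinesins walk along microtubules on paired motor heads, most of them toward the plus end, and carry vesicles, organelles and RNA or act inside the mitotic spindle. Cytoplasmic dynein walks toward the minus end as a large complex of heavy, intermediate, light intermediate and light chains, and it needs dynactin to move processively. The light chains DYNLL1, DYNLT1 and DYNLRB1 sit on the intermediate chains, and the DYNLL proteins also bind many partners outside the motor. In a dividing cell line such as HEK293T, a line derived from human embryonic kidney, the spindle kinesins, the kinesin-1 transporters and dynein are all in use.

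The libraries held 9855734 to 20837542 assigned reads in total RNA and 12434157 to 15794787 in polysome RNA. Levels are given as CPM, the reads of a gene scaled to a common library size after TMM normalization, which sets the bulk of the genes level between libraries. PRRC2B itself stood at 272, 313 and 258 CPM in the shCtrl total libraries and at 97.9, 103 and 100.5 CPM in the shPRRC2B total libraries, a fall to 0.357 of the control level (log2 change -1.49, adjusted p = 4.25e-06, edgeR). On polysomes it went from 12.9, 18.3 and 21.1 CPM to 9.03, 6.5 and 5.14 CPM (log2 change -1.33). The 6 markers of HEK293T cells that were checked had at least 23 reads in every library, and PTPRC, CD3E, PECAM1 and ALB, markers of blood, endothelial and liver cells, had at most 5. In bulk RNA, fewer cells that express a gene and less of its RNA per cell cannot be told apart, and p-values measure the spread between these libraries only.

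The study mapped the places where PRRC2B touches RNA by PAR-CLIP, a crosslinking method, and 4 motor genes had such a site: the spindle kinesin KIF15, the kinesin-1 light chain KLC2, the light chain DYNLL1 and the dynein-2 intermediate chain DYNC2I2. None of the 70 was on the list of transcripts bound by both PRRC2B and its RNA-binding fragment P2. The sites are shown because they are the only contacts with PRRC2B recorded for motor genes in the tables used here. They were read from the GRCh38 (hg38) genome on the strand of the gene, 5′ to 3′, with the longest unbroken run of pyrimidines or of purines in capitals. The study reported CU-rich or GA-rich motifs in the sites that PRRC2B and P2 shared. The capitals mark runs only and do not assign these 4 sites to a motif.
DYNC2I2, chr9:128634689-128634767, minus strand, the 79 coding bases of the site in exon 7 of 9, site of the P2 fragment: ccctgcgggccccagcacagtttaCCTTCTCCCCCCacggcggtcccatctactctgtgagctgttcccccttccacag
DYNLL1, chr12:120496479-120496553, plus strand, the 75 coding bases of the site in exon 2 of 3, site of full-length PRRC2B: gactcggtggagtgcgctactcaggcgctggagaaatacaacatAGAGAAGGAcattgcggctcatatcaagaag
KIF15, chr3:44841078-44841177, plus strand, 100 coding bases in exon 29 of 35, site of the P2 fragment: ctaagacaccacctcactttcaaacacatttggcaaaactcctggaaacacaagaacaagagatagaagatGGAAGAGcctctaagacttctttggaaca
KLC2, chr11:66267209-66267238, plus strand, the middle 30 bases of a site in the 3′ UTR in exon 16 of 16, site of full-length PRRC2B: ccggctggagTCTCCaccatagactcagtg

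The longest run was 12 pyrimidines in DYNC2I2, 9 purines in DYNLL1, 7 purines in KIF15 and 5 pyrimidines in the printed part of KLC2. Pyrimidines made up 68.4% of the DYNC2I2 bases, and purines made up 62.7% of those of DYNLL1 and 57.0% of those of KIF15. Only the DYNLL1 site lay in the first coding exon. What happened to these 4 mRNAs after knockdown is given with their role groups below and set side by side near the end.

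Per kilobase of the canonical transcript, which allows genes of unequal length to be compared, DYNLL1 was the most abundant motor mRNA in shCtrl total RNA, at 122 ± 3.44 CPM per kb (SD, n = 3). The light chain DYNLT1 followed at 56 ± 3.57, and the chromosome-arm kinesin KIF22 at 53.4 ± 4.36. DYNC2I2 (50.8 ± 6.16) and the dynactin subunit DCTN3 (48.6 ± 3.50) came next, and DYNLT1, KIF22, DYNC2I2 and DCTN3 lay within 1 SD of the neighbour in this order. At the other end were the sparse members, such as DYNLRB2 at 0.233 and KIF19, a cilium kinesin, at 0.0898 CPM per kb.

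In polysome RNA the order was far steeper. DYNLL1 reached 2015 ± 822 CPM per kb in shCtrl cells, DYNLT1 422 ± 44.5 and DCTN3 353 ± 48.5. DYNC1H1, the heavy chain that holds the motor domain of dynein-1, stood at 0.843 ± 0.166 CPM per kb there, although in total RNA it was at 26.2 ± 1.78. Subunits that meet in 1 complex thus had very unequal mRNA levels on polysomes.

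The polysome-to-total ratio, the fitted log2 difference between the 2 fractions of 1 line, was low for most motor genes already in the control line. In shCtrl cells 12 of the 64 were higher on polysomes (32.5% of all genes tested) and 40 were lower (39.8% of all genes), where a call needed a Benjamini-Hochberg adjusted p under 0.05 in edgeR's quasi-likelihood test together with a log2 value above 0.5 or below -0.5. The median log2 ratio was -1.21 over the motor genes and -0.22 over all 18166 genes. In shPRRC2B cells 14 were higher (36.6% of all genes) and 43 lower (42.3%), with medians of -1.41 and -0.22. Scaling by total counts or by TMM within each fraction moved the median ratio of all genes in shCtrl cells by about -1 on the log2 scale (-0.996 and -0.9997), and the motor genes stayed -0.99 below all genes under both.

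Most light chains and some dynactin subunits were on the high side. The 5 light chains other than DYNLL2 that were tested were all called higher on polysomes in shCtrl cells, with log2 ratios from 2.24 for DYNLT3 to 4.05 for DYNLL1. The dynactin subunits DCTN3 (2.86), DCTN6 (2.41) and DCTN2 (1.13) were higher too. DCTN5, with the shortest coding sequence of the DCTN genes (546 nt) in a transcript of 10954 nt, was not called (0.067, adjusted p = 0.724). The cilium kinesin KIF9 (3.19) was the only kinesin called higher. At the low end stood DYNC1H1 (-4.96), the kinesin-3 motors KIF13B (-3.72) and KIF1A (-3.53), and the neuronal kinesin-1 heavy chain KIF5A (-3.60). None of the 12 spindle kinesins tested and none of the 6 kinesin-3 transporters was higher on polysomes (32.5% of all genes). Of them, 11 and 6 were lower (39.8%).

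DYNLL1 and DYNLL2 encode light chains of nearly the same sequence and make a clear pair. Their coding sequences are shown because they are equally long while the mRNAs around them are not: the canonical DYNLL1 transcript has 663 nt with a 3′ UTR of 283 nt, and that of DYNLL2 has 6807 nt with a 3′ UTR of 6263 nt. Both were read from GRCh38 (hg38) on the plus strand, joined over the coding exons, with the bases that differ in capitals.
DYNLL1, chr12:120496422-120498210: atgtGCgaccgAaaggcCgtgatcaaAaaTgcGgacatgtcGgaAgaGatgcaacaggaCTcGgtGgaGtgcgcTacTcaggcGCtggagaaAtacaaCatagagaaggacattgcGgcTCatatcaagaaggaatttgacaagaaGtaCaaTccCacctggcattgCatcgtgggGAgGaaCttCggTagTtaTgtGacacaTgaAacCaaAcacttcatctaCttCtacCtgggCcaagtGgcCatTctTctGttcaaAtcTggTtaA
DYNLL2, chr17:58087091-58089279: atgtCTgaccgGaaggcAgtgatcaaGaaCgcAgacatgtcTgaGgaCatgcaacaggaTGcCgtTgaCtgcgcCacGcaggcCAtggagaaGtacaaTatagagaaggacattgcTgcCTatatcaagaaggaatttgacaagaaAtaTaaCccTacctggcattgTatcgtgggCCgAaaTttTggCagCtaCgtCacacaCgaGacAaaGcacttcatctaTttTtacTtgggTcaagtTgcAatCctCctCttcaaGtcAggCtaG

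Of the 270 coding bases, stop codon included, 215 were identical (79.6%) and 55 differed, 49 of these at the last codon position. DYNLL1 stood at 78.9, 79.9 and 83.3 CPM in the shCtrl total libraries and at 1953, 1133 and 921 CPM in the shCtrl polysome libraries. DYNLL2 stood at 59.8, 68.9 and 65.3 CPM in total and at 42.3, 26.4 and 26.7 CPM in polysome RNA of the same cells. Thus all polysome libraries were above all total libraries for DYNLL1 and below them for DYNLL2, with log2 ratios of 4.05 ± 0.24 (SE) and -1.02 ± 0.17, both past the threshold in edgeR's quasi-likelihood test (adjusted p = 4.77e-11 and 3.52e-05). The DYNLL2 ratio is relative to the scaling, as stated for the whole set.

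**Figure D1:**
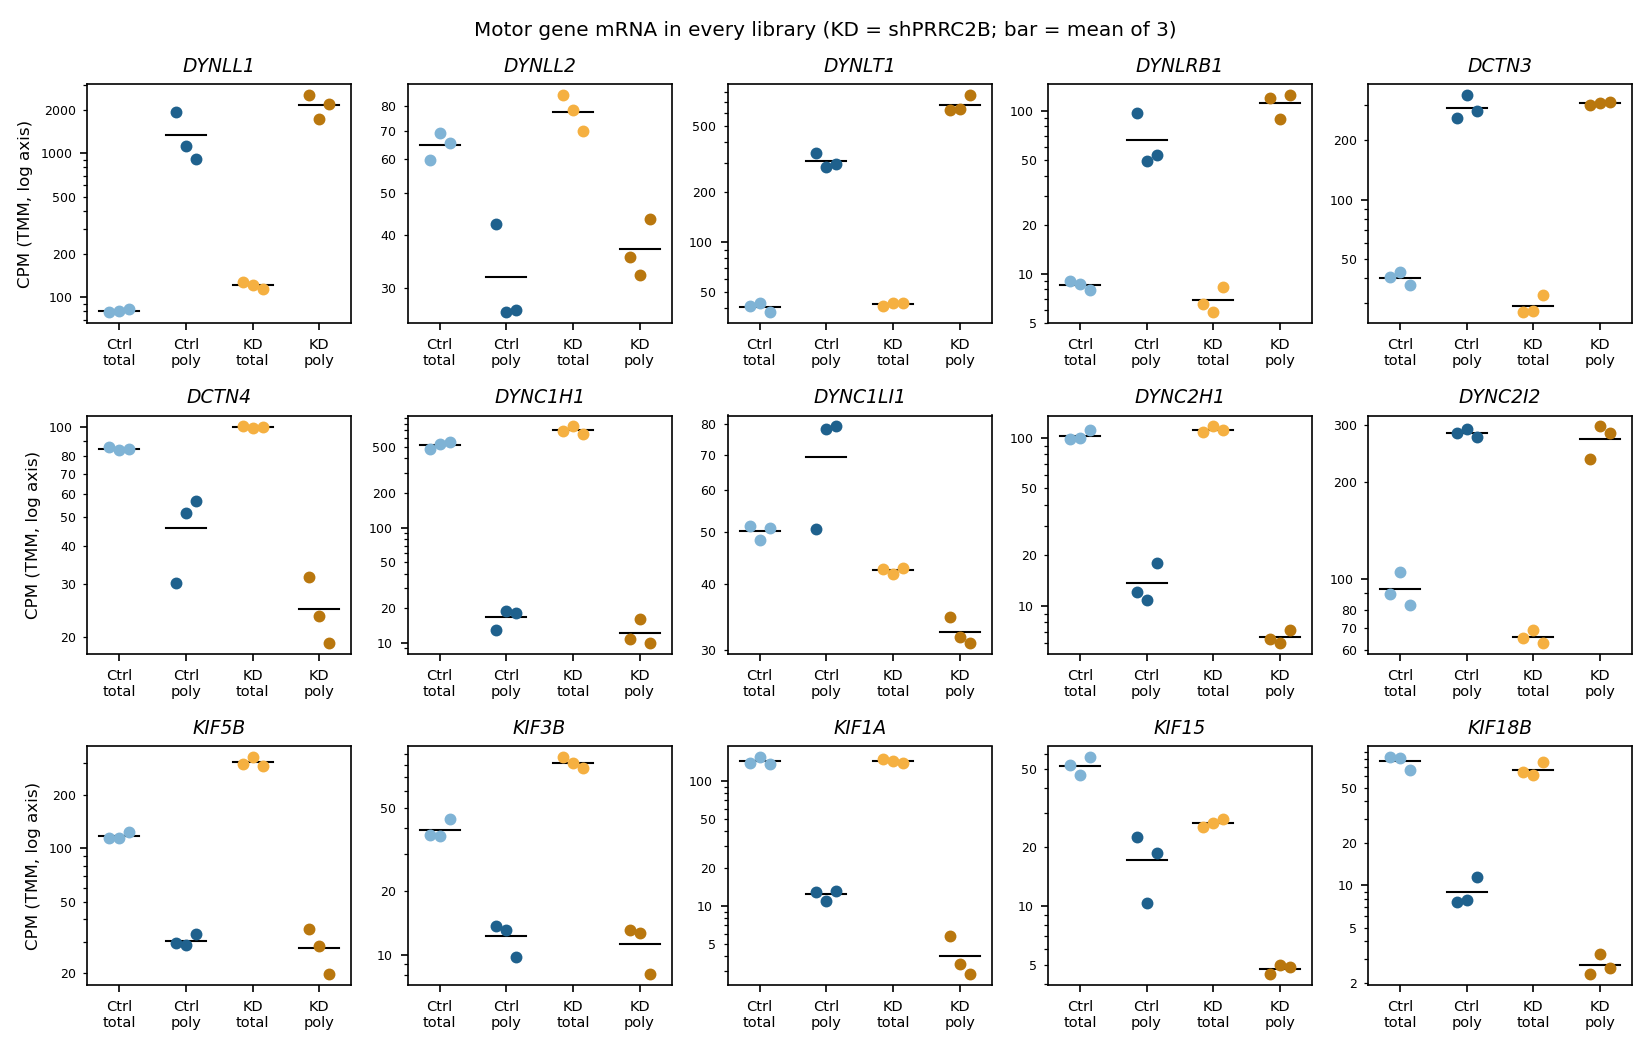
TMM-scaled CPM (log axis) of 15 motor genes in each of the 12 libraries; Ctrl is shCtrl, KD is shPRRC2B, points are libraries and the bar is the mean of 3. The polysome libraries of shPRRC2B cells stand apart for DYNLT1 (623 to 767 CPM against 284 to 345) and KIF1A (2.85 to 5.76 against 11 to 13.2), and their total libraries for KIF5B (290.2 to 324 against 114 to 123).

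The change in translation efficiency (TE) was the knockdown change in polysome RNA minus the knockdown change in total RNA, on the log2 scale, so that a negative value means less of an mRNA on polysomes than its total level would give. After PRRC2B knockdown, TE was lower for 24 of the 64 motor genes (16.4% of all genes tested) and higher for 4 (10.7% of all genes). The median TE change was -0.43 over the motor genes and -0.03 over all genes. The lower calls held the 3 kinesin-1 heavy chains, the main kinesin-2 pair KIF3A and KIF3B, both dynein heavy chains and 7 spindle kinesins. With the length trend removed, as described further on, 13 motor genes were lower, and KIF5A, both dynein heavy chains and the spindle kinesins KIF15, KIF20B, KIF2A and KIF4A were no longer called. The higher calls were the light chains DYNLT1, DYNLRB1 and DYNLRB2 and the small dynactin subunit DCTN3. Of these, DYNLRB2 passed the read filter only through its high shPRRC2B polysome libraries. Of the 24 lower genes, 15 fell on polysomes without a called rise in total RNA, 4 rose in total RNA without a called fall on polysomes, 1 did both (KIF5C), and 4 had neither. The same split was not computed over all genes, so that it cannot be called particular to the motor genes.

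**Figure D2:**
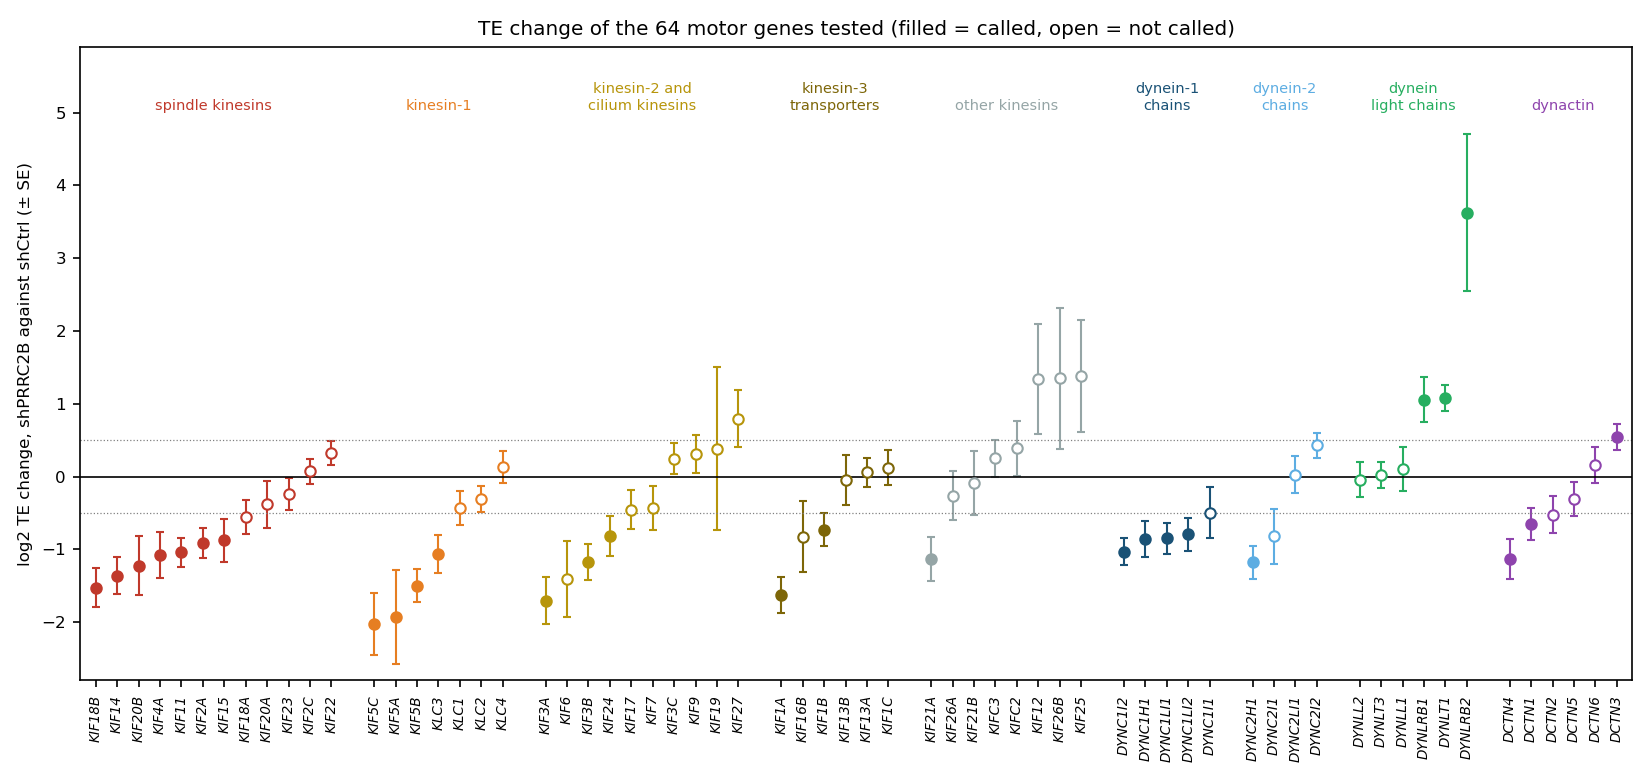
Fitted log2 TE change (y axis, bars are SE) of the 64 motor genes tested (x axis), grouped by role and coloured by it; filled points were called, which needs a log2 value beyond the dotted lines at 0.5 and -0.5. Values run from -2.03 for KIF5C to 3.63 for DYNLRB2, and the 4 filled points above 0 are 3 light chains and DCTN3. DYNLRB2 passed the read filter only through its high shPRRC2B polysome libraries.

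Kinesin-1 carries organelles, vesicles and RNA granules outward, as a pair of heavy chains (KIF5A, KIF5B or KIF5C) with a pair of light chains (KLC1 to KLC4). Of its 7 genes, 4 were lower in TE (16.4% of all genes) and none was higher (10.7%), with a median of -1.06. KIF5B, the ubiquitous heavy chain (chr10:32009015-32056425, GRCh38), stood at 115, 114 and 123 CPM in shCtrl total RNA and at 298, 324 and 290.2 CPM in shPRRC2B total RNA. Its polysome levels were 29.3, 28.5 and 33.1 CPM in shCtrl cells and 35.3, 28.4 and 19.7 CPM in shPRRC2B cells. The total libraries did not overlap between the lines and the polysome libraries did. KIF5B thus rose 2.59-fold in total RNA (adjusted p = 4.43e-06) with no matching rise on polysomes (log2 -0.12, adjusted p = 0.572), and its TE changed by -1.497 on the log2 scale (SE 0.22, adjusted p = 0.000173).

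KIF5C, the heavy chain enriched in neurons, had the lowest TE change of all motor genes, -2.03 ± 0.42 (adjusted p = 0.00216). It stood at 9.43, 8.25 and 10.6 CPM in shCtrl and 18.2, 16.9 and 15.5 CPM in shPRRC2B total RNA. On polysomes it was at 4.59, 4.77 and 1.77 CPM in shCtrl and 2.32, 1.34 and 1.24 CPM in shPRRC2B cells. The gene therefore rose in total RNA (log2 0.85) and fell on polysomes (log2 -1.18), with 1 shCtrl polysome library inside the shPRRC2B range. In fits that each left out 1 library, numbered here by its replicate, the total RNA call was lost without library 1 or 2 of shCtrl total RNA or library 1 or 2 of shPRRC2B total RNA, with log2 values of 0.76 to 0.85 and adjusted p up to 0.0766, while the TE call held in all 12. KIF5A, expressed mainly in neurons, reached at most 3.22 CPM on polysomes and had a TE change of -1.93 (adjusted p = 0.033), which passed in 3 of the 12 such fits (without library 1 or 2 of shCtrl polysome RNA or library 3 of shPRRC2B polysome RNA). It was -1.13 without library 3 of shCtrl polysome RNA (adjusted p = 0.18). Among the light chains, KLC3 fell in TE by 1.06 (adjusted p = 0.00622), from 9.65, 9.11 and 10.1 CPM to 5.67, 5.73 and 6.18 CPM on polysomes without overlap. The TE changes of KLC1 (-0.43), KLC2 (-0.31) and KLC4 (0.13) did not pass the test.

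Kinesin-2 and related kinesins build and signal through cilia. Of the 10 genes tested, 3 were lower in TE (16.4% of all genes) and none higher (10.7%), with a median of -0.44. KIF3A and KIF3B form the motor of anterograde transport in cilia. KIF3A went from 8.24, 4.67 and 7.88 CPM on shCtrl polysomes to 3.87, 1.62 and 2.76 CPM on shPRRC2B polysomes, without overlap, while its total RNA was 36.6, 34.7 and 38.1 CPM and 45.7, 46.4 and 50.2 CPM. Its TE fell by 1.70 (SE 0.32, adjusted p = 0.000973). KIF3B, like KIF5B, rose in total RNA alone, which was 37, 36.8 and 44 CPM in shCtrl and 86.7, 81.3 and 77.4 CPM in shPRRC2B cells, 2.09-fold higher. Its polysome RNA was 13.8, 13.1 and 9.76 CPM and 13.1, 12.7 and 8.09 CPM, overlapping between the lines, and TE fell by 1.18 (adjusted p = 0.00213). KIF3C, an alternative partner of KIF3A, had a TE change of 0.25 (adjusted p = 0.43) and rose on polysomes (log2 0.71, adjusted p = 0.00211). KIF24, which restrains cilium assembly, fell in TE by 0.81, but the call held in only 4 of the 12 fits without 1 library (without library 1 or 2 of shCtrl polysome RNA or library 1 or 2 of shPRRC2B polysome RNA), with adjusted p up to 0.0822 in the others.

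The homodimeric kinesin KIF17 rose in both fractions. It went from 11.9, 12.2 and 10.5 CPM to 27.2, 30.9 and 30.1 CPM in total RNA and from 7.87, 6.94 and 12 CPM to 13.7, 18.5 and 17.3 CPM on polysomes, with no overlap in either fraction. Its TE change of -0.46 did not pass (adjusted p = 0.219). KIF27 had the highest TE value of the cilium group, 0.80 (adjusted p = 0.143), and its total RNA fell (log2 -0.92). KIF7, a regulator of Hedgehog signalling, had a TE change of -0.43 (adjusted p = 0.308). KIF6 and KIF19 were at no more than 3.22 CPM in any library. KIF6 fell on polysomes (log2 -1.21, adjusted p = 0.0201), a call lost without shPRRC2B polysome replicate 2 (adjusted p = 0.0554).

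Kinesin-3 motors move synaptic vesicle precursors, endosomes and other cargo over long distances. Of the 6 genes, KIF1A and KIF1B were lower in TE (16.4% of all genes), and the group median was -0.39. KIF1A was nearly level in total RNA, at 139, 154 and 137 CPM in shCtrl and 149.97, 145 and 139.6 CPM in shPRRC2B cells. On polysomes it was at 13, 11 and 13.2 CPM in shCtrl and 5.76, 3.44 and 2.85 CPM in shPRRC2B cells. All shPRRC2B polysome libraries lay below all shCtrl ones, so that the TE change of -1.63 ± 0.25 (adjusted p = 0.000203) came with a polysome change of -1.61 and a total change of 0.01. KIF1B was the opposite case: it rose 1.84-fold in total RNA (from 81.2, 81.8 and 83.3 to 152, 156 and 145 CPM), with polysome levels of 7.96, 9.22 and 14.2 and 11.4, 11.4 and 11.8 CPM. The KIF1B TE call (log2 -0.73, adjusted p = 0.0228) was lost in 4 of the 12 fits that left out 1 library, those without library 1 or 2 of shCtrl total RNA, library 3 of shCtrl polysome RNA or library 2 of shPRRC2B total RNA, with adjusted p up to 0.0553. KIF1C, a motor of Golgi and mRNA transport, rose in both fractions (log2 0.59 in total and 0.71 on polysomes) with a TE change of 0.12 (adjusted p = 0.741). Its total call was lost without shCtrl total replicate 3 (adjusted p = 0.0503), and its polysome change was 0.45 without shCtrl polysome replicate 2. KIF13A (0.06), KIF13B (-0.04) and KIF16B (-0.83) had TE changes that did not pass.

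The spindle and cytokinesis kinesins pull, push and depolymerize microtubules in mitosis. Of the 12 tested, KIF4A, KIF11, KIF14, KIF15, KIF18B, KIF20B and KIF2A were lower in TE (16.4% of all genes). None was higher (10.7%), and the median was -0.89. KIF18B, a plus-end depolymerase partner of KIF2C on astral microtubules, was at 7.59, 7.81 and 11.5 CPM on shCtrl polysomes and at 2.32, 3.25 and 2.57 CPM on shPRRC2B polysomes. Its total RNA was 82.2, 81.9 and 66.5 CPM and 64.2, 61.5 and 75.6 CPM, overlapping between the lines. The polysome fall to 0.303 of the control level carried a TE change of -1.53 ± 0.27 (adjusted p = 0.000593). KIF14, which acts in cytokinesis, was similar, at 15.5, 11 and 8.98 CPM on shCtrl and 5.76, 4.39 and 4.28 CPM on shPRRC2B polysomes (TE change -1.36, adjusted p = 0.000855). KIF11, the motor that pushes spindle poles apart, fell in TE by 1.04 (adjusted p = 0.000939), from 31.2, 24 and 25.2 to 19.7, 15.6 and 15.5 CPM on polysomes.

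KIF15, which can back up KIF11 in holding the spindle bipolar, was the only TE-lower motor gene with a called fall in total RNA. It stood at 52.5, 46.6 and 57.7 CPM in shCtrl and 25.3, 26.5 and 27.8 CPM in shPRRC2B total RNA, and at 22.6, 10.3 and 18.6 CPM and 4.47, 4.97 and 4.85 CPM on polysomes. Neither fraction overlapped, and the log2 changes were -0.98 in total (adjusted p = 0.0008) and -1.85 on polysomes (adjusted p = 7.71e-06). The difference between the 2, a TE change of -0.88 (adjusted p = 0.0367), passed in only 2 of the 12 fits without 1 library (without library 3 of shCtrl total RNA or library 2 of shCtrl polysome RNA), with adjusted p up to 0.0937. KIF20B had the same weakness, with a TE change of -1.22 (adjusted p = 0.0337) that passed in 3 of the 12 (without library 2 or 3 of shCtrl polysome RNA or library 1 of shPRRC2B polysome RNA). KIF22, which binds chromosome arms, had a TE change of 0.32 (adjusted p = 0.161), and the depolymerase KIF2C one of 0.07 (adjusted p = 0.793), while its relative KIF2A fell by 0.91 (adjusted p = 0.0038). KIF4A (TE change -1.08, adjusted p = 0.0166) has a near-identical copy without introns, KIF4B, so that reads may have been split between them.

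Among the 8 remaining kinesins 1 was lower in TE (16.4% of all genes). It was KIF21A, a slow motor that restrains microtubule growth, with a change of -1.13 (adjusted p = 0.00927). The group median was 0.32, above 0, and its highest value, 1.38 for KIF25, did not pass (adjusted p = 0.194) at levels under 4 CPM in every library. KIF26A, an atypical kinesin without motor activity, had a TE change of -0.26 (adjusted p = 0.598). KIFC3, a minus-end kinesin, rose on polysomes (log2 0.67, adjusted p = 0.00685), and KIFC2 fell in total RNA (log2 -0.83, adjusted p = 0.0137).

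Dynein-1 is the general minus-end motor of the cytoplasm. Of its 5 chain genes, 4 were lower in TE (16.4% of all genes), with a median of -0.85, and all 5 values were below 0. With the length trend removed 2 of the 5 were lower. DYNC1H1 (chr14:101964573-102056443, GRCh38), whose canonical transcript of 19940 nt was the longest among the motor genes, stood at 483, 529.9 and 553 CPM in shCtrl and 691, 756 and 648 CPM in shPRRC2B total RNA. On polysomes it was at 13, 19.1 and 18.3 CPM and 10.8, 16.2 and 9.99 CPM. Total RNA was thus higher in all shPRRC2B libraries and polysome RNA overlapped; neither change passed alone (log2 0.42 and -0.44), and TE fell by 0.86 (SE 0.25, adjusted p = 0.0157). This call was lost with the length trend removed (log2 -0.11, adjusted p = 0.78). The light intermediate chain DYNC1LI1, which links dynein to its cargo adaptors, fell from 50.8, 78.1 and 79.1 CPM to 34.7, 31.7 and 30.9 CPM on polysomes, with total RNA at 51.4, 48.4 and 50.9 CPM and 42.6, 41.7 and 42.8 CPM. Its TE change was -0.85 (adjusted p = 0.00627), and that of DYNC1LI2 was -0.79 (adjusted p = 0.0142). The DYNC1LI2 call was lost with the length trend removed (log2 -0.54, adjusted p = 0.0801).

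The intermediate chain DYNC1I2, the scaffold to which the light chains and dynactin attach, had the lowest TE value of this group, -1.03 ± 0.19 (adjusted p = 0.000743). It was at 30.0, 37.4 and 37.7 CPM on shCtrl polysomes and at 19, 24.1 and 19.9 CPM on shPRRC2B polysomes, without overlap. DYNC1I1, its neuronal counterpart, went from 1.13, 1.61 and 1.17 CPM to 3.03, 2.29 and 2.58 CPM in total RNA, a 1.99-fold rise (adjusted p = 0.0071), and had a TE change of -0.49 that did not pass (adjusted p = 0.313).

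Dynein-2 drives retrograde transport in cilia. Of its 4 genes only the heavy chain DYNC2H1 was lower in TE (16.4% of all genes). DYNC2H1 went from 12.1, 10.9 and 18.1 CPM to 6.36, 6.02 and 7.23 CPM on polysomes. Its total RNA was 98.3, 99.6 and 111 CPM and 108, 117 and 111 CPM. The TE change was -1.18 ± 0.23 (adjusted p = 0.00128), a call lost with the length trend removed (log2 -0.43, adjusted p = 0.171). The intermediate chain DYNC2I1 also fell on polysomes (log2 -1.29, adjusted p = 0.00207), from 16.3, 6.29 and 6.21 CPM to 3.53, 3.53 and 4.85 CPM, with the shCtrl libraries far apart among themselves. DYNC2LI1, the light intermediate chain, fell by a like amount in both fractions (log2 -0.61 in total and -0.58 on polysomes), and its TE change was 0.03 (adjusted p = 0.965). The total call was lost without library 3 of shCtrl total RNA or library 1 of shPRRC2B total RNA (adjusted p = 0.0649 and 0.0519), and the polysome change was -0.49 without shCtrl polysome replicate 3.

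Of the 6 light chains tested, 5 rose on polysomes (18.4% of all genes) and none fell, 3 were higher in TE (10.7% of all genes) and none lower, and the median TE change was 0.58. DYNLL1, DYNLL2 and DYNLT3 had no TE call, and of the 3 higher calls only that of DYNLT1 held with each library left out. The DYNLRB2 calls counted here are limited by the read filter, as given below. DYNLT1, a Tctex-type chain (chr6:158636474-158644743, GRCh38), was at 41.7, 43 and 38 CPM in shCtrl and 41.2, 43.1 and 43 CPM in shPRRC2B total RNA. On polysomes it was at 345, 284 and 295 CPM in shCtrl and 623, 634 and 767 CPM in shPRRC2B cells. All shPRRC2B polysome libraries stood above all shCtrl ones while the total libraries overlapped, and TE rose by 1.08 (SE 0.18, adjusted p = 0.000362). DYNLRB1, a roadblock-type chain, was at 96.4, 48.9 and 53.4 CPM on shCtrl and 119.5, 89.3 and 124 CPM on shPRRC2B polysomes, where the ranges overlapped. Its TE change of 1.06 (adjusted p = 0.0188) passed in 6 of the 12 fits without 1 library and failed without library 1 of shCtrl total RNA, library 2 or 3 of shCtrl polysome RNA, library 2 of shPRRC2B total RNA or library 1 or 3 of shPRRC2B polysome RNA, with adjusted p up to 0.0672.

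DYNLRB2 had the highest TE change of all motor genes, 3.63 ± 1.08 (adjusted p = 0.019), on very few reads. The 3 shPRRC2B total libraries held 1, 2 and 0 reads of it and the 3 shCtrl total libraries 4, 6 and 1, so that the size of this change is not well measured. On polysomes the reads were 5, 7 and 13 in shCtrl and 34, 21 and 50 in shPRRC2B cells, without overlap. The TE call was lost without shCtrl total replicate 2 (adjusted p = 0.0859) and without shPRRC2B total replicate 3 (adjusted p = 0.0532). DYNLL1 rose in both fractions, to 128, 122 and 115 CPM in total RNA and 2536, 1743 and 2225 CPM on polysomes, with log2 changes of 0.59 and 0.70 and a TE change of 0.11 (adjusted p = 0.835). Its polysome libraries overlapped between the lines, and the total RNA call passed in only 2 of the 12 fits without 1 library (without library 1 or 3 of shCtrl polysome RNA). The polysome call was lost without library 2 or 3 of shCtrl polysome RNA or library 1 or 3 of shPRRC2B polysome RNA, with log2 values of 0.39 to 0.60. DYNLT3 rose alike in both fractions without overlap, from 18, 18 and 20.1 to 31.9, 31.6 and 28.1 CPM in total RNA and from 99.8, 76.6 and 86.7 to 151, 141 and 145 CPM on polysomes (TE change 0.02). DYNLL2 passed in neither fraction, with log2 changes of 0.26 and 0.22 and a TE change of -0.04.

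Dynactin is the cofactor that ties dynein to cargo. Of its 6 DCTN genes, DCTN1 and DCTN4 were lower in TE (16.4% of all genes) and DCTN3 was higher (10.7%). DCTN4, a subunit of the pointed-end complex, was at 30.2, 51.5 and 56.7 CPM on shCtrl and 31.6, 23.5 and 19 CPM on shPRRC2B polysomes, where 1 library of each line lay within the range of the other line. Its total RNA was 86.1, 84 and 84.6 CPM and 101, 99.5 and 100.3 CPM, and TE fell by 1.13 (SE 0.27, adjusted p = 0.00549). DCTN1, the p150Glued subunit that binds microtubules, had a TE change of -0.66 (adjusted p = 0.034) that was lost without library 1 or 3 of shCtrl total RNA, library 1 or 2 of shPRRC2B total RNA or library 3 of shPRRC2B polysome RNA, with adjusted p up to 0.0784. DCTN3, the p24 subunit of the shoulder, was at 259.6, 337 and 281 CPM on shCtrl and 301, 308 and 313 CPM on shPRRC2B polysomes, and at 40.8, 42.8 and 37.1 CPM and 26.9, 27.1 and 32.9 CPM in total RNA. Its TE change of 0.55 (adjusted p = 0.0322) passed in 3 of the 12 fits (without library 3 of shCtrl total RNA, library 2 of shCtrl polysome RNA or library 3 of shPRRC2B total RNA), with adjusted p up to 0.100 in the others. DCTN5 rose in total RNA (log2 0.56), and DCTN2 (-0.53) and DCTN6 (0.16) had TE changes that did not pass.

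Taken by fraction, 12 motor genes rose in total RNA after knockdown (14.9% of all genes) and 5 fell (14.1%), and the median was 0.24, against 0.04 over all genes. The largest rises were those of KIF5B (log2 1.37), KIF17 (1.34) and KIF3B (1.06). The falls were KIF15 (-0.98), KIF27 (-0.92), KIFC2 (-0.83), KIF9 (-0.67) and DYNC2LI1 (-0.61). Of these, KIF27 was lost without library 1 of shCtrl total RNA or library 1 of shPRRC2B total RNA (adjusted p up to 0.0893), KIFC2 without library 1 of shCtrl total RNA or library 1 or 2 of shPRRC2B total RNA (up to 0.0866) and KIF9 without library 2 of shCtrl total RNA or library 1 of shPRRC2B total RNA (up to 0.103). Only 7 of the 17 calls in total RNA held with each library left out in turn: KIF5B, KIF17, KIF3B, KIF1B, DYNC1I1, DYNLT3 and KIF15. Among the rises, DCTN5 was lost without library 2 of shCtrl total RNA or library 2 of shPRRC2B total RNA, KIF20A (log2 0.70) without library 1, 2 or 3 of shCtrl total RNA or library 2 or 3 of shPRRC2B total RNA, and KIF20B (log2 0.74) in 8 of the 12 fits, holding only without library 1 or 2 of shCtrl polysome RNA or library 1 or 3 of shPRRC2B polysome RNA. On polysomes 9 rose (18.4% of all genes) and 19 fell (21.4%), with a median of -0.12 against -0.01. The rises were DYNLRB2 (1.87), DYNLT1 (1.13), KIF17 (0.89), DYNLRB1 (0.74), DYNLT3 (0.73), KIF1C (0.71), KIF3C (0.71), DYNLL1 (0.70) and KIFC3 (0.67). DYNLRB2 passed the read filter only through the shPRRC2B polysome libraries in which it was high. The polysome calls of DYNLRB1 (lost without library 2 or 3 of shCtrl polysome RNA or library 1 or 3 of shPRRC2B polysome RNA), KIFC3 (without library 3 of shCtrl polysome RNA or library 1 of shPRRC2B polysome RNA), KIF5A (without library 3 of shCtrl polysome RNA or library 2 of shPRRC2B polysome RNA) and DYNLRB2 (without library 3 of shPRRC2B polysome RNA) depended on single libraries, and 20 of the 28 held with each library left out. As shares of the 64, 18.8% rose and 7.81% fell in total RNA, and 14.1% rose and 29.7% fell on polysomes. The 5 falls in total RNA were 11 when the 6 total libraries were fitted alone, 8 when every gene with at least 1 count was fitted, and 1 to 9 with 1 library left out, so that their share cannot be placed above or below that of all genes. With the length trend removed 15 fell on polysomes, beside 19.7% of all genes. No difference from the shares of all genes was tested.

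**Figure D3:**
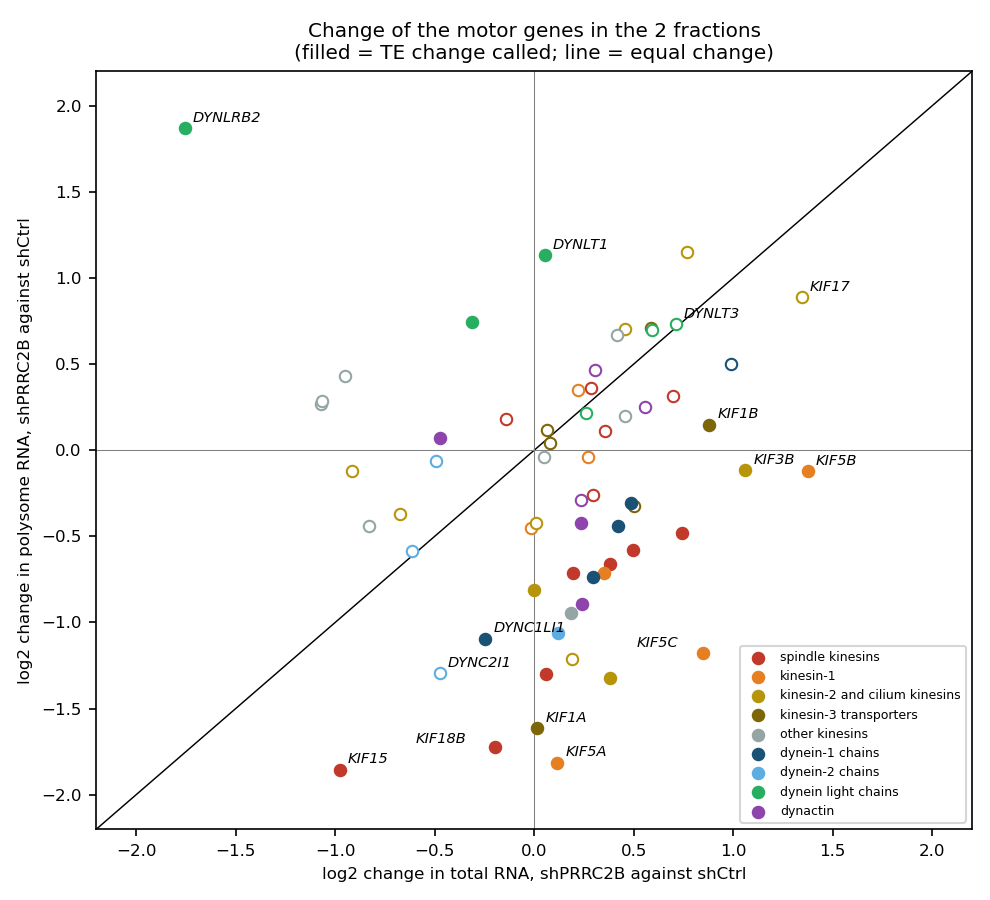
Log2 knockdown change in total RNA (x axis) against that in polysome RNA (y axis) for the 64 motor genes tested, coloured by role; the diagonal marks equal change and filled points had a called TE change. KIF5B (1.37 and -0.12) and KIF3B (1.06 and -0.12) lie right of the diagonal on a rise in total RNA, KIF1A (0.01 and -1.61) lies below it on a fall on polysomes, and KIF17 (1.34 and 0.89) is up in both.

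Set side by side, the 4 motor genes with a PRRC2B site did not share a response. DYNLL1 rose in both fractions, KIF15 fell in both, KLC2 passed in neither (log2 0.27 in total and -0.04 on polysomes), and DYNC2I2 had log2 changes of -0.49 and -0.06 that were not called. DYNC2I2 was at 89.7, 105 and 83 CPM in shCtrl and 65.4, 69.1 and 62.9 CPM in shPRRC2B total RNA, without overlap. Its polysome levels of 284, 293 and 276 and 236, 297 and 283 CPM overlapped, and the TE change of 0.43 did not pass (adjusted p = 0.0805). KIF15 alone had a TE call, which was lost in 10 of the 12 fits without 1 library and with the length trend removed (log2 -0.57, adjusted p = 0.179). The other 23 TE-lower motor genes had no site in the tables used here.

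The values of the motor genes followed transcript length, as those of all genes did. As a description across genes, which are not independent replicates and share the same 12 libraries, the log2 ratio of polysome to total RNA in shCtrl cells had a Pearson correlation of -0.745 with log2 transcript length over the 64 motor genes (Spearman -0.627) and of -0.453 over 15762 genes with a known length (Spearman -0.564). With coding length it was -0.763 over the motor genes (Spearman -0.715) and -0.624 over 13609 genes with a known coding length (Spearman -0.646). The TE change had a correlation of -0.516 with transcript length over the motor genes (Spearman -0.477) and of -0.309 over all (Spearman -0.408). The motor genes are long: 35 of the 64 have a canonical transcript of 4000 nt or more.

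In classes of transcript length, chosen after the data had been seen, TE was lower for 3.12% of all genes under 2000 nt and for 1 of the 10 motor genes, KLC3. It was lower for 13.5% of all genes and 1 of 19 motor genes (DYNC1LI1) from 2000 nt to under 4000 nt. From 4000 nt to under 6000 nt the shares were 29.4% of all genes and 10 of 13 motor genes, and at 6000 nt and above they were 43.0% and 12 of 22. TE was higher for 18.5% of all genes under 2000 nt and for 4 of the 10 motor genes there, which are the 4 higher calls. The gap between the motor genes and all genes of like length was widest from 4000 nt to under 6000 nt, a difference that was not tested.

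**Figure D4:**
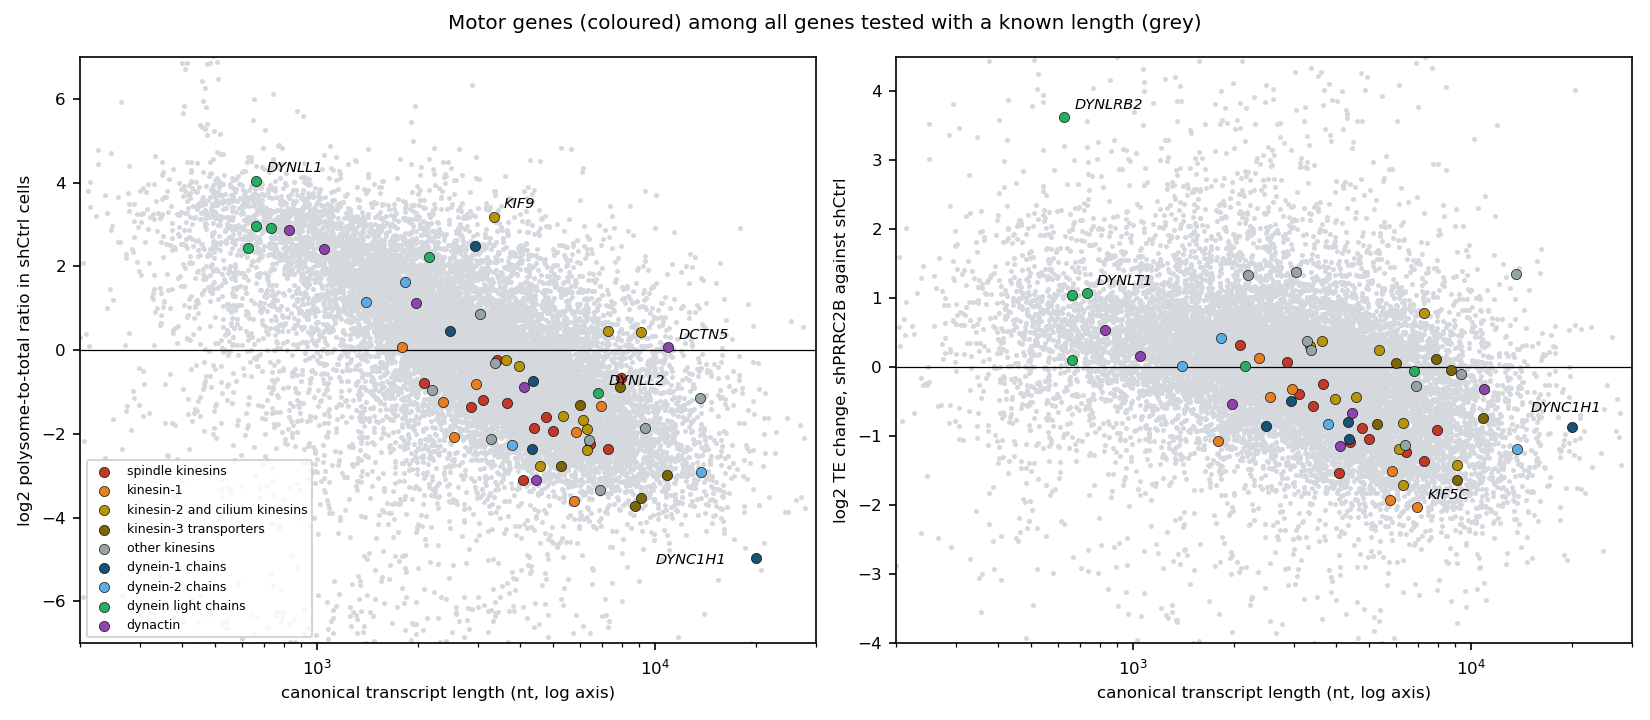
Canonical transcript length (x axis, nt, log axis) against the log2 polysome-to-total ratio in shCtrl cells (left) and the log2 TE change (right); grey points are all genes tested with a known length, coloured points the motor genes by role, and grey points past the axis ends are not drawn. Short light chains such as DYNLL1 (4.05) lie at the upper left and DYNC1H1 (-4.96) at the lower right of the left panel.

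When the dependence of the log counts on transcript length was smoothed and subtracted in each library ahead of the test, 13 motor genes were lower in TE and 5 higher, beside 12.9% and 8.67% of all genes. Of the 24 lower calls, 12 were kept: KIF5B, KIF5C, KLC3, KIF3A, KIF3B, KIF1A, KIF11, KIF14, KIF18B, DYNC1I2, DYNC1LI1 and DCTN4. Both dynein heavy chains lost theirs, DYNC1H1 with a TE change of -0.11 (adjusted p = 0.78) and DYNC2H1 with -0.43 (adjusted p = 0.171). KIF1B went to -0.02, KIF2A to -0.31, KIF15 to -0.57 and KIF5A to -1.51, none of which passed. Of the 4 higher calls DYNLT1 and DYNLRB2 (3.11) were kept, while DYNLRB1 was at 0.48 and DCTN3 at -0.02. DYNLT1 stood at 0.5006, right at the threshold of 0.5, and its TE call was lost under 1 of the 12 alternatives that kept all libraries. DYNLRB2 carries the filter limit given above. KIF1C (0.73), KIF3C (0.62) and KIF27 (1.36) became higher and DCTN2 (-0.84) lower. The median TE change of the motor genes was then -0.34, against -0.06 over all genes. The light chain group then had a median of 0.48, with 4 of the 6 above 0 and DYNLL1 (-0.47) and DYNLT3 (-0.23) below it. The median was -1.08 for kinesin-1, 0.24 for kinesin-3 (-0.39 before) and 0.51 for the other kinesins.

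**Figure D5:**
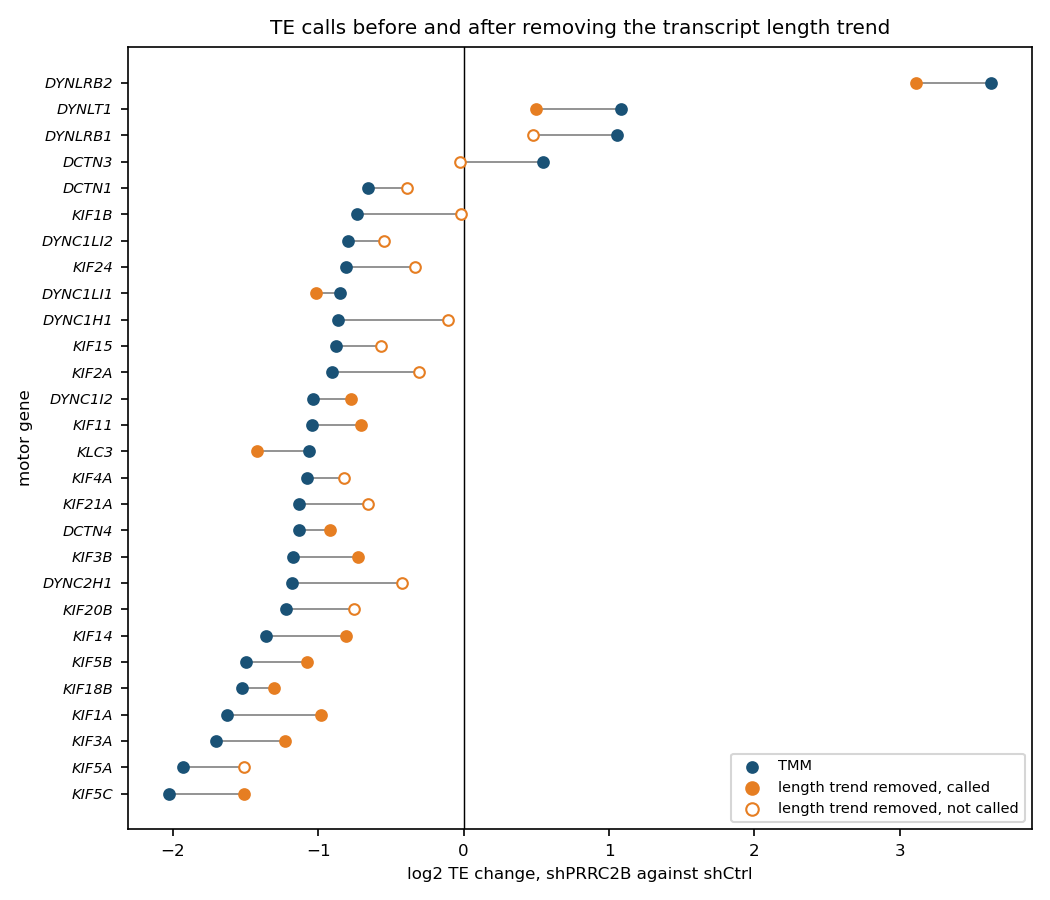
Log2 TE change (x axis) of the 28 motor genes with a TE call (y axis), as fitted with TMM scaling (blue) and after the transcript length trend was removed (orange, filled where still called). Of the 24 lower genes 12 keep the call, and DYNC1H1 (-0.11), KIF1B (-0.02) and DCTN3 (-0.02) move to about 0.

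A list of 32 genes outside the symbol rule held cargo adaptors, dynein regulators, kinesin partners, the dynactin subunits not named DCTN (ACTR1A, ACTR1B, ACTR10, CAPZA1, CAPZA2 and CAPZB) and CENPE, a kinesin of the kinetochore. Of the 31 tested, 11 were lower in TE (16.4% of all genes) and 4 higher (10.7%), with a median of -0.20, and the higher calls numbered 2 to 5 with 1 library left out (2 without library 3 of shPRRC2B polysome RNA). CENPE (-1.43), CAPZA1 (-1.10) and ACTR1A (-0.66) were among the lower genes. ACTR1B (0.72) was among the higher, right at the threshold (adjusted p = 0.05 once rounded), and ACTR10, CAPZA2 and CAPZB had no TE call. The lowest were the dynein adaptors HOOK1 (-1.55 ± 0.22, adjusted p = 0.000119) and HOOK3 (-1.49 ± 0.29, adjusted p = 0.00112), and the highest were RAB11FIP3 (1.96 ± 0.53, adjusted p = 0.0115), an adaptor of recycling endosomes, and BICDL2 (1.48 ± 0.62), which did not pass (adjusted p = 0.0859). In total RNA 8 rose (14.9% of all genes) and 6 fell (14.1%), and on polysomes 8 rose (18.4%) and 12 fell (21.4%). All these counts come from the fit without the length trend removed. Among the lower genes named, canonical transcripts ran from 2358 nt for CAPZA1 to 8541 nt for CENPE and 14348 nt for HOOK3. At 6000 nt and above, TE was lower for 43.0% of all genes.

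The 6 motor genes that were not tested were DYNLT2, DYNLT4, DYNLT5, KIF2B, KIF4B and KIFC1. KIF2B and DYNLT5 had no read in any library. KIFC1, a minus-end motor of the spindle that is abundant in dividing cells, had 0 to 9 reads per library. In the table the region around it (chr6:33391823-33409896, GRCh38) was nearly empty as a whole: of 10 protein-coding genes within 100 kb, 8 had a mean under 10 reads and the highest mean was 43.75, and RPS18, a ribosomal protein gene of the same chromosome arm, had at most 2 reads in any library. The level of KIFC1 was therefore not read from these counts.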

How the data were processed

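RNA of 4 groups (2 HEK293T lines, total and polysome RNA, 3 biological replicates each) was measured as read counts per gene name. The authors deposited whole-number counts of reads per gene, which per the submitters' processing notes came from bcl2fastq 2.19.0, Trimmomatic 0.36, HISAT2 2.1.0, Subread 2.0.1 (featureCounts) and R 4.1.2 on GRCh38. No strand setting for the counting is given in the sources used here, so that reads of a gene and of an antisense partner cannot be told apart. Totals per library ran from 9855734 to 20837542 in total and from 12434157 to 15794787 in polysome RNA, and 0 value columns belonged to no library.

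The counts of all 12 libraries were fitted together with edgeR 4.0.16 (R 4.3.3, limma 3.58.1) by the quasi-likelihood test, after filterByExpr (minimum count 10) and TMM scaling, with Benjamini-Hochberg adjustment over all 18166 genes tested. Calls were made at an adjusted p of 0.05 with at least 0.5 of log2 change. The script was tested on simulated data. DESeq2 1.42.0, limma on log2(CPM + 1), other scalings and filters, replicate and culture blocks, removal of the length trend (lowess, span 0.3) and leaving out each library were alternatives. Same-numbered libraries did not deviate together (0 of 18 pairs above 0.1), so that the replicate number was not used as a pairing. Lengths and positions came from the canonical transcripts of a later GENCODE release than that of the counts and matched 86.8% of the genes tested by name, all 64 motor genes among them. Figures were drawn with Python 3.11.15 and matplotlib 3.10.9.

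The members and the gene lists were chosen with earlier results of these data known. Genes named are mainly the most abundant, highest and lowest members of each role group, the members with a PRRC2B site and every member called. From the other transport genes they are the 2 highest and 2 lowest, with CENPE and the dynactin subunits not named DCTN added.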

Additional observations from a re-analysis of the deposited data

Results flagged for a closer look

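The 28 motor genes whose TE change passed edgeR's quasi-likelihood test (Benjamini-Hochberg adjustment over all genes) are those whose knockdown change differed between polysome and total RNA by a direct test of that difference. In 23 of them the fitted change had opposite signs in the 2 fractions, and in 5 it had the same sign. These genes were picked for a difference between the fractions, which favours opposite signs, and no share over all genes was computed. Some of the signs rest on a change close to 0, as in total RNA for KIF24 (0.0014), KIF1A (0.014) and KIF14 (0.060). Only KIF5C was called in both fractions in opposite directions. The values that follow are the log2 change in polysome RNA minus that in total RNA. Kinesins with opposite signs were KIF5C (-2.03), KIF5A (-1.93), KIF3A (-1.70), KIF1A (-1.63), KIF5B (-1.497), KIF14 (-1.36), KIF20B (-1.22), KIF3B (-1.18), KIF21A (-1.13), KIF4A (-1.08), KLC3 (-1.06), KIF11 (-1.04), KIF2A (-0.91) and KIF24 (-0.81). Dynein and dynactin genes with opposite signs and a value below 0 were DYNC2H1 (-1.18), DCTN4 (-1.13), DYNC1I2 (-1.03), DYNC1H1 (-0.86), DYNC1LI2 (-0.79) and DCTN1 (-0.66). Those with opposite signs and a value above 0 were DCTN3 (0.55), DYNLRB1 (1.06) and DYNLRB2 (3.63). The genes with the same sign in both fractions were KIF18B (-1.53), KIF15 (-0.88), DYNC1LI1 (-0.85), KIF1B (-0.73) and DYNLT1 (1.08). The KIF15 value was called in only 2 of the 12 fits without 1 library and stood at -0.57 once the length trend had been removed (adjusted p = 0.179). Transcript length moved with these values, and in the fit with the length trend removed 12 of the 24 lower and 2 of the 4 higher calls were kept.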

How the results depend on the processing

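With the length trend removed, 13 motor genes were lower in TE, and with the replicate block added 13 were lower and 2 higher. In total RNA 8 fell when every gene with at least 1 count was fitted and 11 when the 6 total libraries were fitted alone. The counts ran from 2 to 4 TE-higher and from 18 to 28 TE-lower genes with 1 library left out. The lowest pair of counts came without shCtrl total replicate 1 and again without shPRRC2B total replicate 2, and 2 TE-higher genes were also left without shCtrl total replicate 2 and without shPRRC2B polysome replicate 1 or 3. In total RNA 1 to 9 genes then fell (1 without shPRRC2B total replicate 1 and 9 without shCtrl polysome replicate 1), and 2 to 5 of the other transport genes were TE-higher. The replicate block alone gave 4 higher and 23 lower in TE, and 3 of the 12 libraries correlated best with their own number. The sign of the TE change turned with the length trend removed, without and with the block, for DCTN3 (-0.025 and -0.020), which had been called higher. It also turned for the uncalled genes DYNLL1 (-0.47 and -0.43), DYNLL2 (0.48 and 0.50), KIF26A (0.26 and 0.23) and KLC4 (-0.072 and -0.075). Without the block, further uncalled genes turned: DCTN5 (to 0.39), DCTN6 (-0.40), DYNC2LI1 (-0.45), DYNLT3 (-0.23), KIF13B (0.60) and KIF21B (0.58). DYNLL2 also turned under scaling by total counts (0.0042), TMM within each fraction (0.020) and a minimum of 10 counts in every library (0.023). With 1 library left out the ranges were -0.156 to 0.45 for DYNLL1, -0.22 to 0.18 for DYNLL2, -0.087 to 0.36 for KIF1C and -0.012 to 0.20 for KLC4. The cause was not tested. Of the 28 TE calls 12 held under every alternative, of the 17 calls in total RNA 7 and of the 28 on polysomes 14. The median TE change stayed between -0.33 and -0.48 under the alternatives that kept all libraries. Genes with few reads, DYNLRB2 above all, limit what depth can show.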
